A study of Mus musculus with 6 samples.

Results

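The genes described here copy DNA and mend the errors of copying. They are the 46 genes, of 22322 in the deposited table, whose KEGG annotation in that table names DNA replication or Mismatch repair. DNA replication was assigned to 37 of them and Mismatch repair to 25, with 16 genes in both pathways, 21 in DNA replication only and 9 in Mismatch repair only. Their transcripts were counted by RNA sequencing of DP (CD4+CD8+) thymocytes, the cells of the thymic cortex that rearrange the T cell receptor alpha chain. The cells were sorted from untreated mice on a C57BL/6 background, and 3 libraries of each genotype were made. Control mice were littermates with floxed Paxbp1 alleles and no Cre (Paxbp1fl/fl, labelled WT), and Paxbp1 cKO mice carried the same alleles with the Lck-cre transgene. Both groups therefore had the floxed allele, and only the cKO group had Cre, which the Lck promoter drives in T-lineage cells from the early double-negative stage onward. Mice of both sexes were used at 4 to 7 weeks of age. Neither the labels nor the methods say whether each library came from its own mouse, so p-values measure the spread between these samples only, which may be technical.

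Before S phase, the hexameric MCM helicase, built from Mcm2 to Mcm7, is loaded on origins of replication by Orc1, Cdc6 and Cdt1. When origins fire, the helicase unwinds DNA, RPA coats the exposed single strands, polymerase alpha-primase lays down primers, and polymerases epsilon and delta extend them while held to DNA by the sliding clamp Pcna, which the RFC complex loads. Fen1, Dna2, the ribonucleases H and Lig1 turn Okazaki fragments into a continuous strand. Mismatch repair uses MutS dimers that contain Msh6 or Msh3 to find wrong bases, MutL dimers that contain Pms2 or Mlh3 to nick the new strand, and Exo1 to degrade it, and it then borrows Pcna, RFC, RPA, polymerase delta and Lig1 from replication. In the thymus, cells divide in a burst at the passage from the double-negative to the DP stage and then stop dividing, so a DP population holds both cycling blasts and small resting cells.

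Total counts ran from 18963775 to 26252248 over the 6 libraries, and a gene's level is given as its counts scaled to the library (CPM), where 1 count was worth 0.0388 to 0.0521 CPM. Of 14 DP thymocyte markers, 14 were tested and none was at 0 in every library. At an adjusted p below 0.05 in edgeR, 5 were lower in cKO, where 5.89% of all tested genes were lower. The 14 markers summed to 16071 to 19403 CPM in control libraries and 12506 to 14499 CPM in cKO libraries. Rag1, which cuts DNA for receptor rearrangement, was among the 5 (log2 fold change -0.85, adjusted p = 0.00923). Of 9 tested markers of the preceding double-negative and immature single-positive stages, 5 had a log2 fold change above 0. The range was from -0.93 to 2.79. At an adjusted p below 0.05 in edgeR, 3 (Hes1, Il2ra and Dtx1) were higher in cKO and none was lower. Of all tested genes, 4.47% were higher and 5.89% were lower. The counts of Paxbp1 itself do not separate the genotypes as labelled. They were 40.1, 16.3 and 15.5 CPM in control libraries 1, 2 and 3 and 38.8, 47.1 and 49.6 CPM in the cKO libraries (log2 fold change 0.92, SE 0.33, adjusted p = 0.0977). Only exon 8 is floxed, so reads over the rest of the gene do not measure the deletion, and every direction below rests on the genotype labels. The paper itself checked the deletion by qPCR and reverse transcription PCR in sorted double-negative, immature single-positive and DP cells. It described the deletion as complete by the immature single-positive stage, and reported efficient loss of the protein by western blot in double-negative and DP cells. In bulk RNA, more cells in S phase and more RNA per cell cannot be told apart.

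Parts of the replication machinery were higher in the Paxbp1 cKO libraries, and all subunits of the MCM helicase were among them. Of the 43 members with enough counts to test, 13 were higher in cKO and none was lower at an adjusted p below 0.05 when tested with edgeR (quasi-likelihood F-test, Benjamini-Hochberg adjustment over all 11488 tested genes). That is 30.2% of the tested members, where 4.47% of all tested genes were higher and 5.89% were lower. The 13 were all 6 MCM subunits, Pcna, the clamp loader subunits Rfc3 and Rfc4, Rpa2, Fen1, Exo1 and an annotated locus, Gm49384, described at the end. With an added requirement of a log2 fold change above 1, 4 members passed (Exo1, Mcm4, Mcm3 and Mcm5), where 1.53% of all tested genes did so in that direction. A log2 fold change above 0 was found for 38 of the 43 tested members, 88.4% against 49.8% of all tested genes, and their median log2 fold change was 0.44, with a range from -0.65 to 1.26, where that of all tested genes was -0.00172. The 3 cKO libraries lay above the 3 control libraries for 27 members and below them for 1, Pold4. The shares over all tested genes were 15.7% above and 17.3% below.

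The count of calls rested on few libraries. Without cKO library 3 it fell from 13 to 1, Mcm4, while the share of all tested genes called higher fell to 0.359%, and without control library 2 it was 6, beside a share of 1.5%. DESeq2, the test named in the study's methods, called 20 members higher, beside 8.30% of all tested genes, and 1 lower, Pold4, beside 8.59%. An unadjusted p below 0.05 in edgeR was found for 28 tested members higher in cKO, where 13.3% of all tested genes reached it in that direction, and for 1 lower, where 14.6% did.

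**Figure D1:**
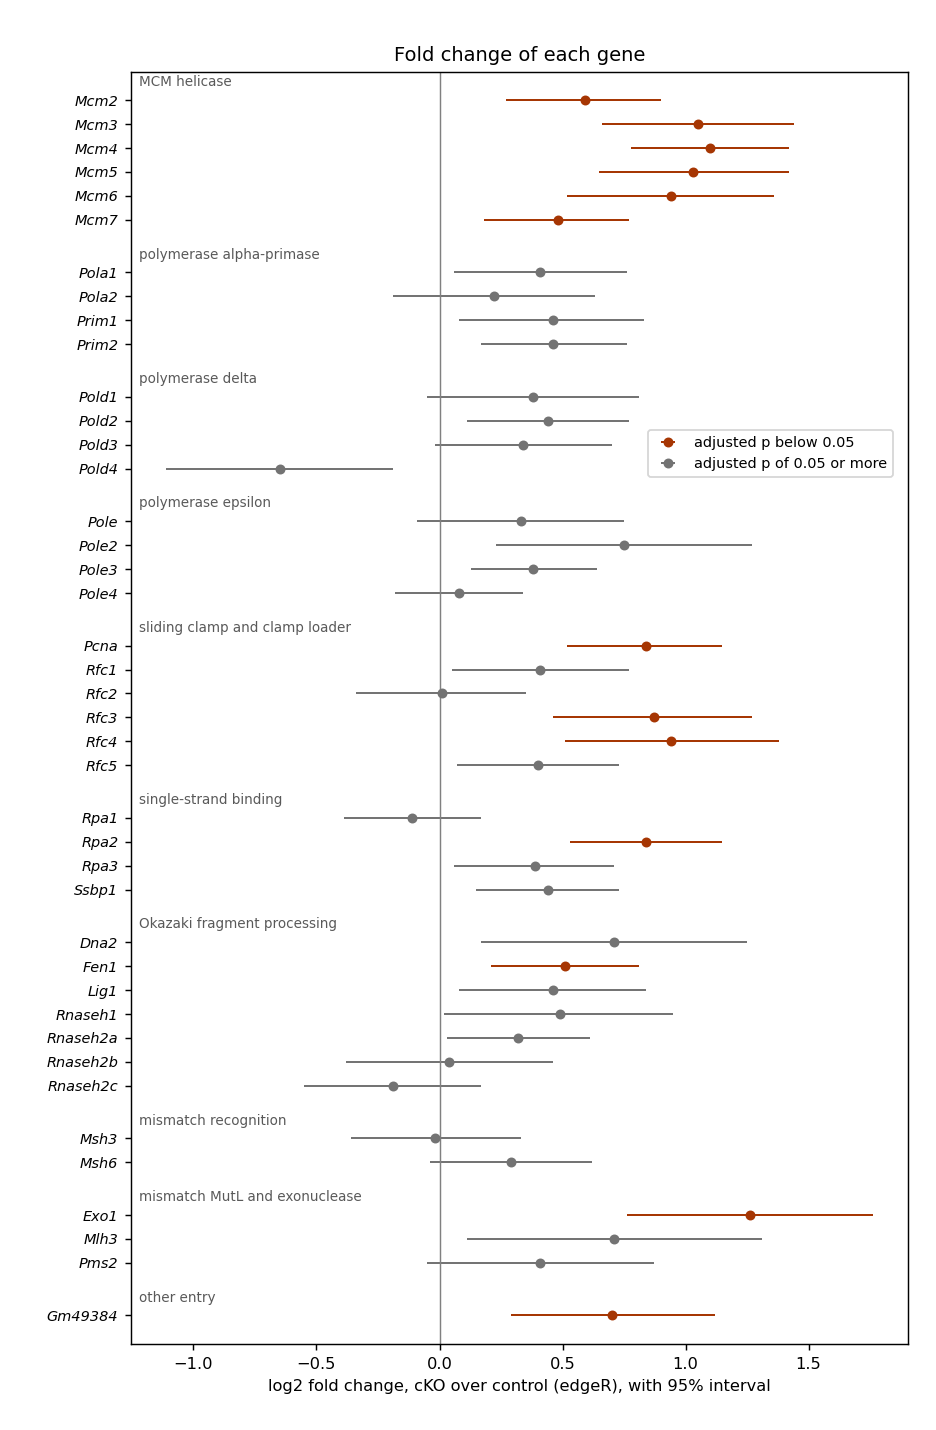
Log2 fold change of 41 tested members, cKO over control, from edgeR, on the horizontal axis, with its 95% interval as a bar and members grouped by role. Filled red points mark the 13 members with an adjusted p below 0.05, all of them to the right of 0. Grey points mark the other members, of which Pold4 has the lowest value, -0.65.

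The promoter windows of 5 members called higher are shown because they hold at least 2 strings of the kind bound by E2F factors, which drive the transcription of replication genes at the entry into S phase. Each window runs from 250 bases before to 50 bases after a RefSeq gene start on GRCm38.p6 and is read 5′ to 3′ on the strand of the gene, and capitals mark TTTCCCGC, TTTCGCGC, TTTGCCGC or TTTGGCGC on either strand. The windows are Mcm3 (chr1:20820263-20820562, minus strand), Mcm5 (chr8:75109259-75109558, plus strand), Mcm6 (chr1:128359656-128359955, minus strand), Mcm7 (chr5:138171834-138172133, minus strand) and Rfc3 (chr5:151651159-151651458, minus strand).
Mcm3: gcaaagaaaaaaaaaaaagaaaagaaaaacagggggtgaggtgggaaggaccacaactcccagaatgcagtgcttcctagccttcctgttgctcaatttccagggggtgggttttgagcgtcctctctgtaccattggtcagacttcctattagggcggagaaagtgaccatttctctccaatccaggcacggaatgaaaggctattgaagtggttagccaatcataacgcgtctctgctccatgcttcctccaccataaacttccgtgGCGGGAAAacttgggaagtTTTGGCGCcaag
Mcm5: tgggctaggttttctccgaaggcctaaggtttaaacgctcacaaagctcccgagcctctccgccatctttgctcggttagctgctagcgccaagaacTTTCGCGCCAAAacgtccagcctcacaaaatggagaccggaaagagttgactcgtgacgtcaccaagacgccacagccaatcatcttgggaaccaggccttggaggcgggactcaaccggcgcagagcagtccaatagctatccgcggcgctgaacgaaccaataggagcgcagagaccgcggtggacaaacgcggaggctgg
Mcm6: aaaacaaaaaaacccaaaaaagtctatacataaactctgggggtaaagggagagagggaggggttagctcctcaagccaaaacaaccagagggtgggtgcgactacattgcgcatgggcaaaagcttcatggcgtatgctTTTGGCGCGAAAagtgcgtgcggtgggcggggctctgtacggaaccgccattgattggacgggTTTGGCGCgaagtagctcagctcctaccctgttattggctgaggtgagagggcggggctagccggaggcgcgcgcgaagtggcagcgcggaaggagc
Mcm7: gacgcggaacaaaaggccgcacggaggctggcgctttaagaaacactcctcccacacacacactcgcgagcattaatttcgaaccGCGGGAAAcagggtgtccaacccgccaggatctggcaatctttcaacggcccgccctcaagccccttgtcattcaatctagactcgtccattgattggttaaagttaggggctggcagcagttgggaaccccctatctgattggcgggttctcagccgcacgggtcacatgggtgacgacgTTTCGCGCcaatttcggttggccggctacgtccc
Rfc3: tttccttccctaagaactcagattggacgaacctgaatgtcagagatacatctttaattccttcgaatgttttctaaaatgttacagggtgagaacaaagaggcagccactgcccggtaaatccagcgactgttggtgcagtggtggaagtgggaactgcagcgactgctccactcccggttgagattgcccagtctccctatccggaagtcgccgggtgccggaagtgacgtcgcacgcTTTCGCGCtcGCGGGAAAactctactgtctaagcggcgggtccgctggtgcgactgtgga

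RefSeq windows were matched by symbol for 33 of the 46 members, in 40 windows, since some genes have more than 1 start. An E2F-type string was found in 14 of the 40 member windows (35%), against 744 of all 32851 windows (2.26%). Among the 10 genes called higher that have a window, the 5 printed above hold such a string, each at least 2 times, and Pcna, Rpa2, Mcm2, Rfc4 and Fen1 hold none there. Among the other members with a window, 8 of 23 genes hold at least 1, in 9 of their 28 windows. Windows with 2 or more such strings number 6 among the members and 32 of all 32851 (0.0974%). In Mcm5, Mcm6 and Msh3 a pair of these strings on opposite strands overlaps in a stretch of 12 bases, an arrangement found in 4 of all windows. Msh3, the member with 2 such strings that is not printed, did not pass the test (log2 fold change -0.02, adjusted p = 0.966). In the other motifs searched, CCAAT occurred in 52.5% of member windows and 37.4% of all windows, and the strings TTTGAA or TTCGAA, cores of the cell cycle homology region of late cell cycle genes, in 15% and 19.2%. A string is a description of the letters in the window and not a measured site, and no binding was measured.

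The MCM helicase was the role group in which every member passed the test. Its 6 transcripts had a median log2 fold change of 0.99 and summed to 2165, 2649 and 3167 CPM in the control libraries and 4211, 4680 and 5667 CPM in the cKO libraries. Mcm4 (chr16:15623897-15637400, minus strand, coordinates from GENCODE M21 on GRCm38) was measured at 270, 288 and 321 CPM in control libraries and 538, 584 and 758 CPM in cKO libraries. Every cKO library lay well above every control library, and the fold was 2.14 (95% interval 1.71 to 2.67, adjusted p = 0.00408). It was the member with the lowest p, and its call held when any 1 library was left out, with adjusted p from 0.00294 to 0.0287.

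Mcm3 (chr1:20802968-20820312, minus strand) was measured at 337, 409 and 505 CPM in control libraries and at 717, 831 and 1042 CPM in cKO libraries, and Mcm5 (chr8:75109569-75128439, plus strand) at 317, 420 and 500 CPM and 715, 846 and 970 CPM. For both, the lowest cKO library exceeded the highest control library, with log2 fold changes of 1.05 (SE 0.17) and 1.03 (SE 0.17) and an adjusted p of 0.00825 for each. Mcm6 (chr1:128331590-128359664, minus strand) was the helicase subunit with the most counts, at 466, 645 and 797 CPM in control libraries and 1067, 1158 and 1437 CPM in cKO libraries (log2 fold change 0.94, SE 0.19, adjusted p = 0.0146). The control libraries of Mcm6 differed among themselves by more than control 3 differed from cKO 1.

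Mcm2 and Mcm7 had the smallest fold changes of the helicase. Mcm2 (chr6:88883474-88898780, minus strand), which also binds histones ahead of the fork, was measured at 353, 386 and 474 CPM in control libraries and 536, 592 and 692 CPM in cKO libraries (log2 fold change 0.59, SE 0.14, adjusted p = 0.0302). Mcm7 (chr5:138164583-138172422, minus strand), which hosts microRNA genes within its introns, was measured at 421, 502 and 569 CPM and at 638, 668 and 768 CPM (log2 fold change 0.48, SE 0.13, adjusted p = 0.0492). The groups did not overlap for either gene, and both calls were lost without control 2 and without any of the 3 cKO libraries.

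The fold changes within the helicase can be set side by side as the share that each subunit took of the summed FPKM of the 6, the measure of level that the authors scaled to transcript length as well as library size. Mcm7 took 19.7% to 22.5% of the sum in control libraries and 14.8% to 16.8% in cKO libraries, and Mcm2 12.7% to 14.1% and 10.7% to 11.1%. Mcm3 went from 15% to 15.5% in control to 16.5% to 17.8% in cKO, Mcm4 went from 8.89% to 11% in control to 11.4% to 12.2% in cKO, and Mcm5 from 16.0% to 17.6% in control to 18.8% to 19.9% in cKO. The groups did not overlap for these 5 subunits, also when shares were taken of counts, while those of Mcm6 overlapped. These shares were not tested, and since they add up to the whole, a higher share of some subunits means a lower share of others.

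**Figure D2:**
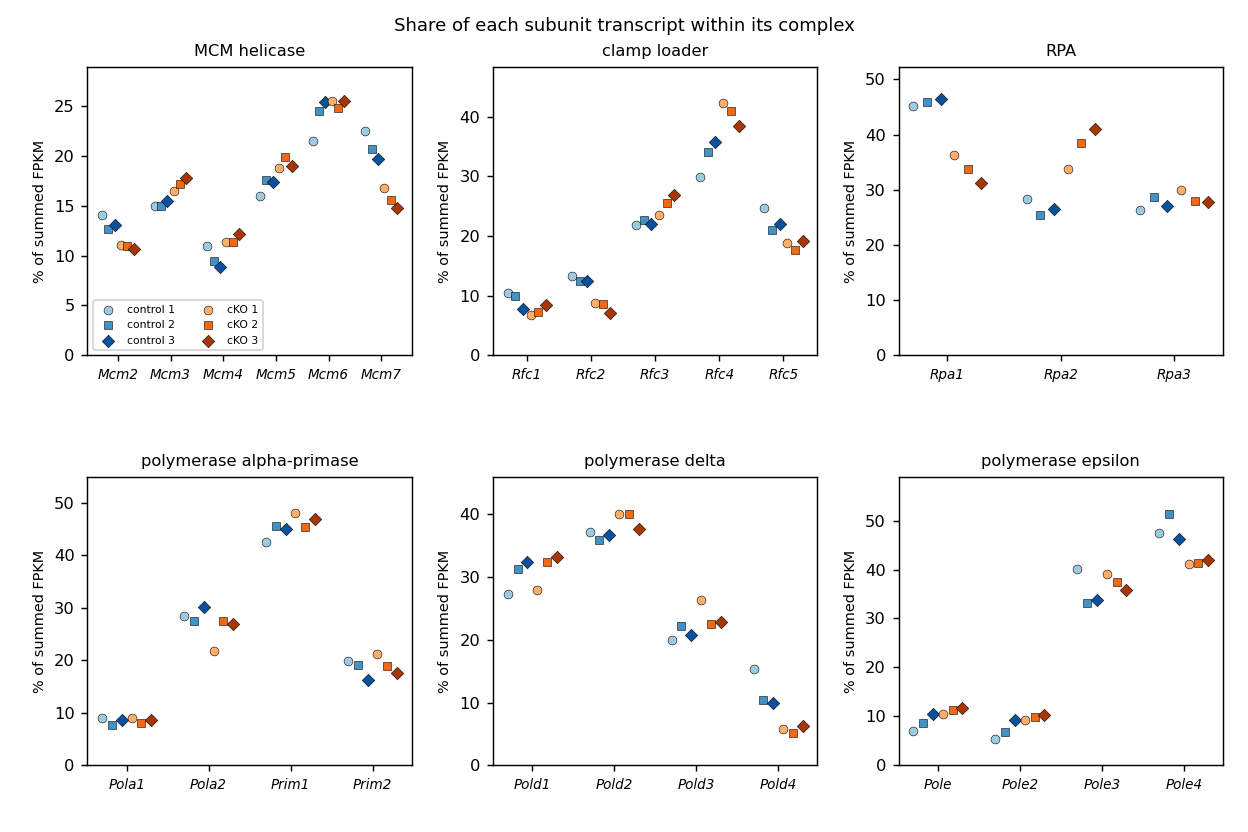
Share of each subunit in the summed FPKM of its complex, in percent on the vertical axes from 0, for 6 complexes (MCM, clamp loader, RPA and the polymerases alpha, delta and epsilon), with 1 point per library (blue for control, orange to brown for cKO). In the MCM panel Mcm2 and Mcm7 take smaller shares in cKO, and in the clamp loader panel Rfc2 and Rfc5 do. When shares are taken of counts, the groups overlap for Rfc5. In the RPA panel Rpa1 takes a smaller share in cKO and Rpa2 a larger one. In the polymerase panels Pold4 and Pole4 take smaller shares in cKO. Pola2 does so by a narrow margin, with 27.6% in the lowest control and 27.5% in the highest cKO library. Pold2 and Pold3 take larger shares in cKO, but their groups overlap when shares are taken of counts.

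Among the polymerases that copy the strands, no member passed the threshold in edgeR. Of the 12, 7 had an unadjusted p below 0.05, of which 1, Pold4, was lower in cKO. Of all tested genes, 13.3% reached that p in the higher direction and 14.6% in the lower. DESeq2 called Prim2, Pold2, Pole2 and Pole3 higher and Pold4 lower. Polymerase alpha-primase, which starts each strand with an RNA-DNA primer, had 4 members with log2 fold changes from 0.22 to 0.46 and adjusted p from 0.0511 (Prim2) to 0.473 (Pola2). Prim1, the catalytic primase subunit and the member of this complex with the highest mean FPKM, was measured at 90.5, 128 and 146 CPM in control libraries and 156, 161 and 183 CPM in cKO libraries. The groups did not overlap, and the fold was 1.37 (95% interval 1.06 to 1.78, adjusted p = 0.109).

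Polymerase delta, which extends the lagging strand, gave a mixed picture. Pold2, its subunit with the highest FPKM, was measured at 79.9, 91.7 and 118 CPM in control libraries and 123, 134 and 135 CPM in cKO libraries (log2 fold change 0.44, SE 0.15, adjusted p = 0.0877). Pold4 (chr19:4231899-4233634, plus strand), the smallest accessory subunit, was the only member for which all 3 cKO libraries lay below the controls, at 16.9, 14.6 and 15.9 CPM in control libraries and 9.86, 8.90 and 11.4 CPM in cKO libraries. Its fold was 0.636 (95% interval 0.462 to 0.876), with an adjusted p of 0.0715 in edgeR and 0.0489 in DESeq2, so its call depended on the test. Its share of the summed FPKM of the 4 subunits was 9.98% to 15.4% in control and 5.17% to 6.30% in cKO libraries. Pold1, the catalytic subunit, and Pold3 had log2 fold changes of 0.38 and 0.34 (adjusted p = 0.239 and 0.202).

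Polymerase epsilon, which extends the leading strand, had 4 members with log2 fold changes above 0. Pole2, a structural partner of the catalytic subunit, had a log2 fold change of 0.75 (adjusted p = 0.0682), Pole3 0.38 (adjusted p = 0.0599) and the catalytic subunit Pole 0.33 (adjusted p = 0.284). Pole4, the histone-fold partner of Pole3 and the subunit with the highest mean FPKM, was measured at 109, 130 and 119 CPM in control libraries and 128, 118 and 133 CPM in cKO libraries. Its groups overlapped, and the 95% interval of its log2 fold change ran from -0.18 to 0.34 around 0.08 (adjusted p = 0.703).

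The sliding clamp and part of its loader were higher in cKO. Pcna (chr2:132249162-132253314, minus strand), the ring that tethers polymerases and recruits Fen1, Lig1 and mismatch repair proteins, had the highest FPKM of all members, 339 ± 56.4 (SD, n = 3) in control and 614 ± 49.6 in cKO libraries. In counts it was measured at 431, 508 and 617 CPM in control libraries and 880, 878 and 1020 CPM in cKO libraries, with no overlap (log2 fold change 0.84, SE 0.14, adjusted p = 0.00869). Rfc4 (chr16:23113943-23127737, minus strand) was measured at 68.2, 106 and 129 CPM and at 186, 194 and 202 CPM, and Rfc3 (chr5:151642756-151651242, minus strand) at 54.3, 76.6 and 85.9 CPM and at 112, 131 and 153 CPM. Both are small subunits of the loader, and their log2 fold changes were 0.94 (SE 0.20, adjusted p = 0.0172) and 0.87 (SE 0.18, adjusted p = 0.0174), with no overlap of the groups.

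The other loader subunits did not pass the test. Rfc1, the large subunit specific to this loader, had a log2 fold change of 0.41 (adjusted p = 0.132) and Rfc5 of 0.40 (adjusted p = 0.114). Rfc2, another small subunit, was at 117, 159 and 179 CPM in control libraries and 150, 160 and 146 CPM in cKO libraries, a difference within the spread of the controls (log2 fold change 0.01, 95% interval -0.34 to 0.35). Its share of the summed FPKM of the 5 loader subunits was 12.4% to 13.3% in control and 7.04% to 8.70% in cKO libraries, while Rfc4 went from 29.8%-35.8% to 38.4%-42.2% and Rfc3 from 21.8%-22.7% to 23.5%-26.9%.

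The RPA trimer, which binds single-stranded DNA, was also unequal. Rpa2 (chr4:132768332-132778752, plus strand), the subunit that checkpoint kinases phosphorylate, was measured at 125, 141 and 154 CPM in control libraries and 211, 254 and 288 CPM in cKO libraries, with no overlap (fold 1.79, 95% interval 1.44 to 2.22, adjusted p = 0.00825). Rpa1, the large subunit with the main DNA-binding domains, was at 353, 447 and 480 CPM in control libraries and 400, 394 and 391 CPM in cKO libraries. Its cKO libraries lay inside the control range, and the 95% interval of its log2 fold change was -0.39 to 0.17. Rpa1 took 45.1% to 46.5% of the summed FPKM of the trimer in control libraries and 31.3% to 36.3% in cKO libraries, and Rpa2 25.4% to 28.4% and 33.8% to 41.0%. Rpa3, the small subunit, had a log2 fold change of 0.39 (adjusted p = 0.116), and Ssbp1, the mitochondrial single-strand binding protein that the pathway also lists, of 0.44 (adjusted p = 0.0586).

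Of the 7 enzymes that process Okazaki fragments, 1 passed the test. Fen1 (chr19:10199132-10204169, minus strand), the nuclease that cuts displaced flaps, was measured at 224, 237 and 277 CPM in control libraries and 300, 368 and 384 CPM in cKO libraries. The groups did not overlap, though cKO 1 lay close to control 3, and the log2 fold change was 0.51 (SE 0.13, adjusted p = 0.0390). The flap nuclease and helicase Dna2 (0.71, adjusted p = 0.0882) and the ligase Lig1 (0.46, adjusted p = 0.111) had log2 fold changes of similar or larger size with wider spread. Rnaseh1 and Rnaseh2a, the enzyme and the catalytic subunit that cut RNA in RNA-DNA hybrids, had log2 fold changes of 0.49 and 0.32 (adjusted p = 0.164 and 0.138), and the accessory subunits Rnaseh2b and Rnaseh2c of 0.04 and -0.19 (adjusted p = 0.914 and 0.483).

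**Figure D3:**
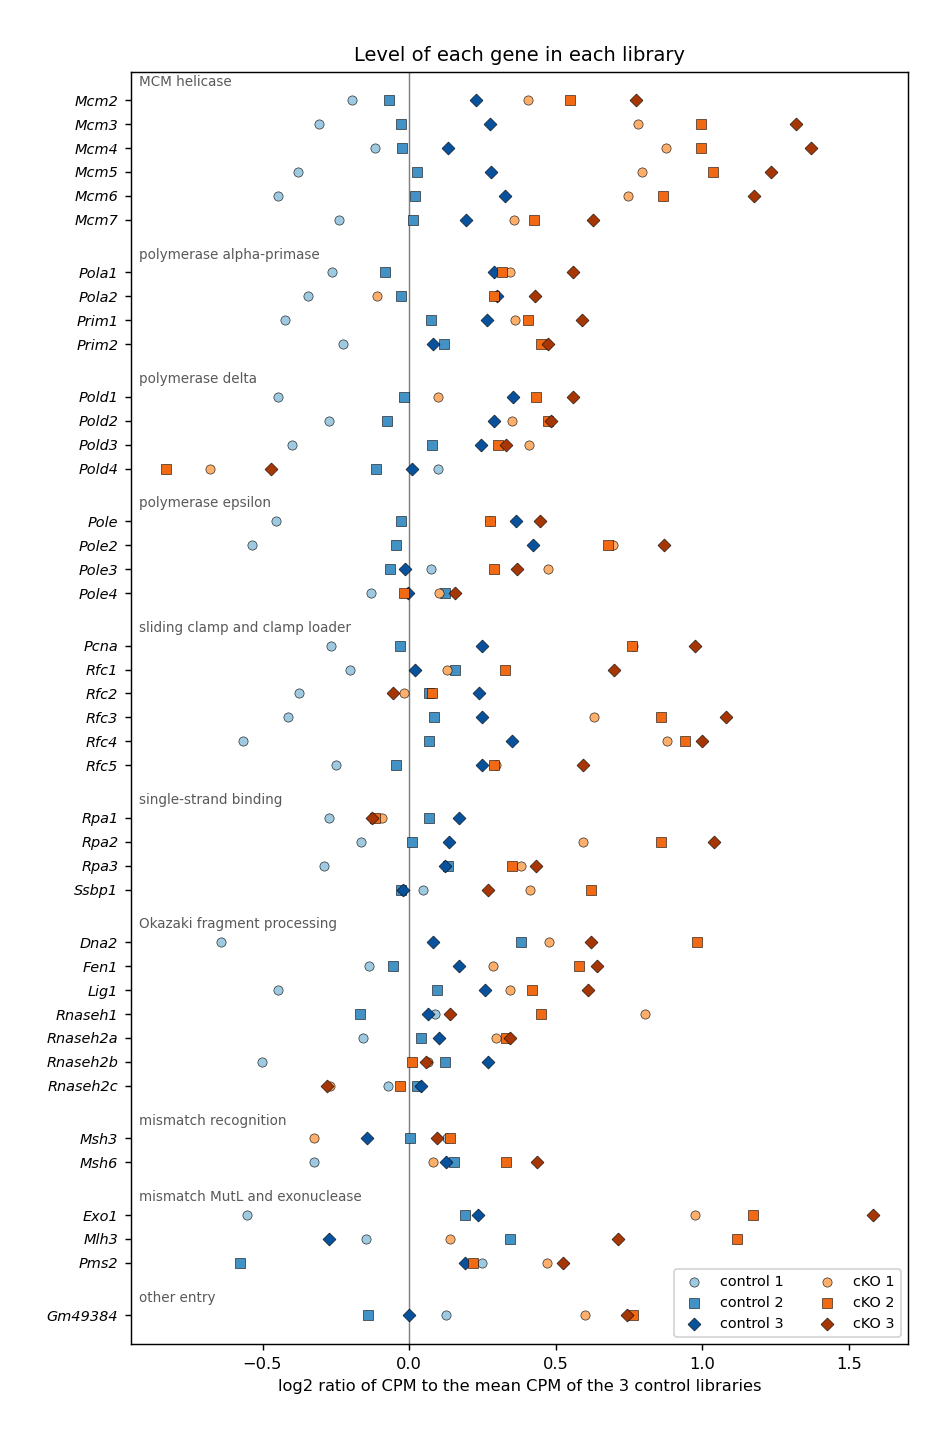
Log2 ratio of the CPM of 41 tested members in each library to the mean CPM of the 3 control libraries, on the horizontal axis, with members grouped by role and 1 symbol per library (blue for control, orange to brown for cKO). The cKO symbols of Mcm2 to Mcm7, Pcna, Rfc3, Rfc4, Rpa2 and Exo1 lie to the right of all control symbols, control 1 is the lowest of all 6 libraries for most members, and cKO 3 is the highest.

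Mismatch repair was represented by the machinery it shares with replication and by factors of its own. Of the 22 tested members of the pathway, 5 (22.7%) were called higher, where 4.47% of all tested genes were, and 4 of these (Pcna, Rfc3, Rfc4 and Rpa2) are also replication genes. Of the 7 tested members that belong to Mismatch repair only, 1 was called, Exo1, and the cKO libraries lay above all control libraries for 1 (14.3%), a share near the 15.7% of all tested genes. Their median log2 fold change was 0.29, and it was 0.15 without control library 1. The 21 genes of DNA replication only had 8 called (38.1%) and a median of 0.48. The difference between these sets was not tested.

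Exo1 (chr1:175880581-175913489, plus strand), the exonuclease that excises the strand holding the error, had the largest fold of all members. It was measured at 26.9, 45 and 46.4 CPM in control libraries and 77.5, 88.9 and 118 CPM in cKO libraries. The groups lay far apart, and the fold was 2.40 (95% interval 1.70 to 3.40, adjusted p = 0.00968). Like Mcm3, Mcm5, Pcna and Rpa2, it lost its call only without cKO 3, where its adjusted p was 0.0627.

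Msh6 and Msh3, which recognise mismatches, did not pass edgeR's test, and neither had an unadjusted p below 0.05 or was called by DESeq2. Msh6, which serves for base mismatches, was measured at 229, 319 and 313 CPM in control libraries and 304, 361 and 388 CPM in cKO libraries (log2 fold change 0.29, 95% interval -0.04 to 0.62). Msh3 (chr13:92211872-92355003, minus strand), which serves for loops, was at 72.9, 66.8 and 60.3 CPM and at 53.2, 73.5 and 71.2 CPM (-0.02, 95% interval -0.36 to 0.33). The groups overlapped for both genes, and the upper bounds of these intervals lie below the log2 fold changes of Mcm3, Mcm4, Mcm5 and Exo1.

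Pms2 and Mlh3, MutL genes whose products form endonucleases, did not pass the test in edgeR or DESeq2, and Mlh3 had an unadjusted p below 0.05. Pms2, the main nuclease of repair, was measured at 58.9, 33.2 and 56.6 CPM in control libraries and 68.7, 57.7 and 71.3 CPM in cKO libraries (log2 fold change 0.41, 95% interval -0.05 to 0.87). Mlh3, better known for its part in meiotic crossovers, had the lowest FPKM of the tested members and was at 12.9, 18.1 and 11.8 CPM and at 15.7, 31.0 and 23.4 CPM (0.71, SE 0.27, adjusted p = 0.119). The groups overlapped for both.

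The remaining 4 members are annotated loci whose exons overlap those of another member, for Rsph10b only over 2.74% of its exonic bases. Whether their link to the pathways comes from these overlaps was not tested. Gm49384 (chr12:69189839-69204267, minus strand) carries the KEGG identifier of Pole2 but shares 74.1% of its exonic bases with Dnaaf2, a factor for the assembly of axonemal dynein, and 25.9% with Pole2. It was measured at 13.1, 10.9 and 12 CPM in control libraries and 18.2, 20.4 and 20.1 CPM in cKO libraries (log2 fold change 0.70, SE 0.19, adjusted p = 0.0413), and reads from these genes cannot be assigned with certainty. Without it and the other 3 loci, 12 members were called. Gm42421 spans Pms2 and Rsph10b, had 2 to 11 counts per library and was not tested. Rsph10b, a gene of cilia, was counted 29, 1 and 1 times in control libraries and 2, 0 and 1 times in cKO libraries, and Gm45928, which spans Clcf1 and Pold4, had 0 counts in every library. Of the members called higher, Fen1 shares 78.8% of its exonic bases with Gm10143 and 5.37% with Tmem258, both on the opposite strand. Gm10143 is absent from the deposited counts. Rfc4 shares 12.7% with Eif4a2 and Mcm7 7.25% with Ap4m1, also on the opposite strand. How far these overlaps affect the counts was not tested.

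The libraries of a group did not sit at the same level. Summed over all 46 members, the control libraries had 5596, 6850 and 7856 CPM and the cKO libraries 9347, 10144 and 11622 CPM. Control 1 was the lowest control library for 35 of 43 tested members, and cKO 3 was the highest cKO library for 31. The median coefficient of variation over members was 17.7% among control and 10.9% among cKO libraries.

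Genes of the later cell cycle did not separate the groups. Of 20 G2/M genes (among them Mki67, Top2a, Ccnb1 and Plk1), 10 had a log2 fold change above 0, and none passed edgeR's test in either direction or had an unadjusted p below 0.05. Their log2 fold changes had a median of 0.03 and a range from -0.36 to 0.36. Their sum was 4153, 6627 and 7013 CPM in control libraries and 5036, 6181 and 6601 CPM in cKO libraries, so that the groups overlapped. The ratio of the 46 members to the 20 G2/M genes was 1.35, 1.03 and 1.12 in control libraries and 1.86, 1.64 and 1.76 in cKO libraries, with no overlap. Control 1 was the lowest control library for both sums, and cKO 3 the highest cKO library for both.

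**Figure D4:**
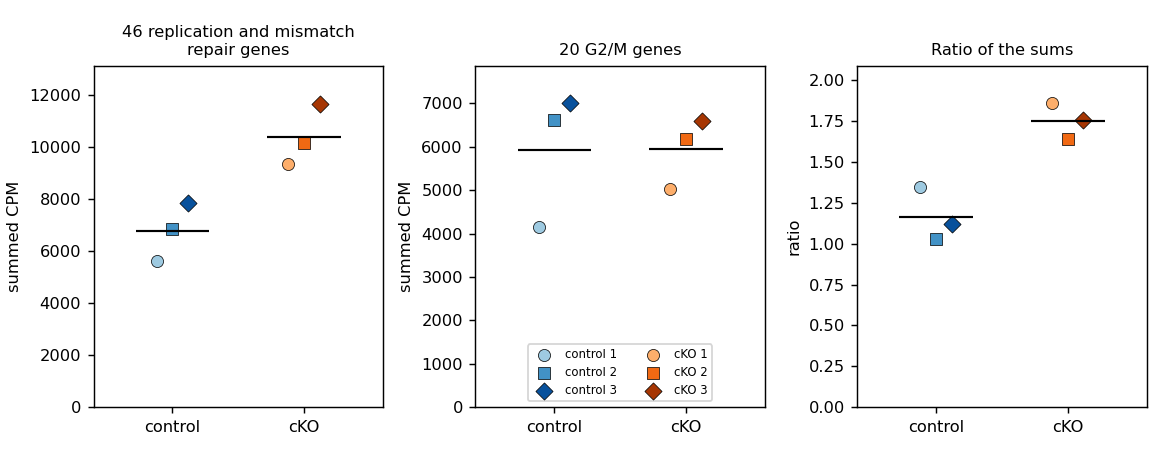
Summed CPM of the 46 members, summed CPM of 20 G2/M genes, and the ratio of these sums, on vertical axes that start at 0, with 1 point per library and a line at the mean of each group. The cKO libraries lie above the controls for the members (9347 to 11622 against 5596 to 7856 CPM) and for the ratio (1.64 to 1.86 against 1.03 to 1.35), and the groups overlap for the G2/M genes.

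Some of the genes that act just before and around the members were higher too. Of 21 genes for origin licensing and firing, 9 were higher and none was lower at an adjusted p below 0.05 in edgeR. For this list and those below, the shares of all tested genes were 4.47% higher and 5.89% lower. The 3 cKO libraries lay above all control libraries for 17 of the 21 and below them for 1. Those shares over all tested genes were 15.7% and 17.3%. Orc1, the origin recognition ATPase that is rebuilt in each cycle, had the largest log2 fold change of this list, 1.78 (SE 0.22, adjusted p = 0.00408), with 39.7, 23.1 and 24.9 CPM in control libraries and 88.7, 90.5 and 122 CPM in cKO libraries. Cdc6, which helps Orc1 to load the MCM ring, was at 96.8, 115 and 148 CPM and at 254, 314 and 372 CPM (1.38, SE 0.18, adjusted p = 0.00408). Neither gene overlapped between the groups, and control 1, the lowest control for most members, was the highest for Orc1.

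Of 11 genes for fork protection and alternative clamp loaders, 6 were higher and 1 was lower. Atad5, which unloads Pcna from DNA, and Tonsl, which handles histones at damaged forks, had log2 fold changes of 1.05 (SE 0.15, adjusted p = 0.00495) and 1.06 (SE 0.19, adjusted p = 0.0104). The lower gene was Chtf8, a subunit of the loader that acts in cohesion (fell by 0.60 on the log2 scale, adjusted p = 0.0363). Of 8 genes for chromatin replication, 3 were higher, Nasp and Chaf1a with the lowest p. Of 13 genes listed for deoxynucleotide supply, 12 are reported, and the counts given here leave out the other 1, so they do not describe the whole list. Among the 12, none passed edgeR's test, and 4 had an unadjusted p below 0.05. Of all tested genes, 13.3% reached that p in the higher direction and 14.6% in the lower. DESeq2 called 3 of the 12 higher, where it called 8.30% of all tested genes higher. Dut (log2 fold change 0.57, adjusted p = 0.0546) and Nme1 (0.48, adjusted p = 0.0652) had the lowest p of the 12. Of 8 genes for translesion synthesis, Rev1 was higher (0.91, adjusted p = 0.0120) and Primpol came next (0.63, adjusted p = 0.0690). Of 5 tested relatives of the repair genes (other MutS and MutL homologues, Hmgb1, Mcm8 and Mcm9), none passed and 1 had an unadjusted p below 0.05. Pms1 (0.39, adjusted p = 0.159) and Mcm8 (0.24, adjusted p = 0.501) had the lowest p.

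Markers of other cells were read in the same libraries. Of 20 macrophage markers, 14 were tested, 13 had a log2 fold change above 0 and 5 were called higher, with summed levels of 15.9 to 43.1 CPM in control and 65.7 to 85.7 CPM in cKO libraries, and Mertk was at 0 in all 6. Of 7 B cell markers, only Cd79b had enough counts to test and was lower in cKO, at 40.2 to 45 CPM in control and 23.3 to 28.2 CPM in cKO libraries. The other 6 B cell markers were each at most 1.06 CPM in every library, so the summed level of 41.0 to 45.9 CPM in control and 26.2 to 29.1 CPM in cKO libraries is almost wholly Cd79b. Among 6 tested mature single-positive markers, Cd69 was higher in cKO, and none of the tested dendritic (3), erythroid (5) or thymic epithelial (3) markers passed in either direction in edgeR or DESeq2 or had an unadjusted p below 0.05. The part of the called macrophage, DP and double-negative stage markers in the values of the members was not tested.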

How the data were processed

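RNA was measured in sorted DP thymocytes in 3 control and 3 Paxbp1 cKO libraries, grouped by the genotype label. The labels name a SMARTER kit, whereas the study's methods used Discover-sc WTA Kit V2 with the TruePrep DNA Library Prep Kit V2. The submitters' processing notes list fastp 0.18.0, Bowtie2 2.2.8, HISAT2, StringTie 1.3.1 and RSEM. The genome build, annotation and strand setting, not given in the sources used here, decide which reads fall to overlapping genes. The authors deposited 1 table with raw gene counts and with FPKM per library, which they scaled to transcript length and library size, and their mean FPKM per group. Its log2 ratio, p-value and FDR columns hold the authors' own comparison, and these deposited log2 values and p-values were not used.

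Counts were analysed with edgeR 4.0.16 in R 4.3.3, using TMM factors (0.981 to 1.01), filterByExpr (minimum count 10, minimum total 15) and the quasi-likelihood test with genotype as the only term. Of 15349 genes with a count, 11488 were tested, with Benjamini-Hochberg adjustment over all of them and a threshold of 0.05. The script was tested on simulated data first. CPM values use effective library sizes, and FPKM was used only to compare levels between genes and as an alternative. No libraries of a group were duplicates. Overlaps between genes were computed on GENCODE M21 (GRCm38), matched by Ensembl identifier for 22267 genes.

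The members and gene lists were chosen with earlier results of these data known. Values per library are given for each member past the threshold, for Pcna and the mismatch repair factors Exo1, Msh3, Msh6, Mlh3 and Pms2, for the member with the highest mean FPKM in a role group without a call, and for the lower member with the lowest p. Rpa1, Rfc2 and the untested loci were added after their values were seen, as were genes named from the marker lists and Chtf8. Some genes, 2 tested members among them, are not reported here singly or in the plots, and stay in the counts over members. From each further list the 2 reported genes with the lowest p are named. Alternatives were RLE factors, total counts alone, DESeq2 1.42.0, limma-voom (limma 3.58.1), no filter, a mean of at least 5 CPM, limma on log2(FPKM + 0.5), the replicate number as a block, and leaving out each library. A description of protein motifs was planned and not run.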

Additional observations from a re-analysis of the deposited data

How the results depend on the processing

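The direction of the 13 members called higher was the same under every alternative, and so was the sign of the median over all tested members, which ran from 0.32 (without control 1) to 0.56 (without control 3). The median of the members in Mismatch repair only ran from 0.15 (without control 1) to 0.38 (without cKO 1). DESeq2 called 20 members higher and 1 lower, and limma on log2(FPKM + 0.5) called 19 higher and 1 lower, Pold4 in both. Leaving out 1 library gave 1 to 16 members higher, 0 lower, and 0 to 8 past both the fold and the p threshold. The lowest counts came without cKO 3 (1 and 0), and the count past both thresholds was 2 without control 1 and 8 without control 3. Without control 2, 6 were higher. The cause of these changes was not tested, and each such fit has fewer samples. RLE factors, total counts alone and limma-voom gave 14 each, no filter 12, and a mean of at least 5 CPM 16. Signs turned for 3 members near 0, none of them past the threshold. Rnaseh2b ran from -0.16 (without control 1) to 0.20 with 1 library left out. Rfc2 was at -0.00367 with no filter, and ran from -0.15 (without control 1) to 0.14 with 1 library left out. Msh3 was at 0.00286 with total counts alone, 0.04 with limma on log2(FPKM + 0.5), and ran from -0.10 to 0.12 (without cKO 1) with 1 library left out. Leaving out the 4 annotated loci, an alternative chosen after seeing the data, gave 12 higher. The labels give both genotypes the replicate numbers 1 to 3. Over all tested genes, deviations of same-numbered libraries from their group means correlated at 0.045, 0.038 and -0.030. With 3 libraries per group, these values cannot decide whether the numbers pair the libraries. The summed CPM of the members rose with the replicate number in both groups. With the replicate block, 15 members were called higher, 12 of them shared with the fit without it, with Gm49384 lost and Dna2, Lig1 and Pole2 gained. Low counts limit Gm42421 and Rsph10b, in which 1 library would decide any difference.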
